A study of Mus musculus with 8 samples.

Results

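The genes described here mark mast cells, basophils and eosinophils, the granulocytes of allergic inflammation and of defence against parasites. The set held 9 genes: Fcer1a and Ms4a2, Il1rl1, Cpa3, Mcpt8 and Hdc, Prg2 and Epx, and Mitf. Open chromatin at them was taken from ATAC-seq peak lists, in which the Tn5 transposase cuts accessible DNA, and every peak that overlapped a gene body or the 20 kb on either side of it was kept. Across 8 libraries these windows held 330 peaks, which merged into 78 regions where they shared at least 1 bp, out of 123260 regions in the whole genome. Of the 78, 17 were promoter regions of the gene itself (summit within 3 kb of one of its annotated start sites), 13 were promoter regions of another gene in the window, and 48 were distal. A region is named by its gene and a number that counts along the gene in the direction of transcription.

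The libraries came from bone marrow of 4.5-month-old female mice of the strain labelled 129Sv4/Jae x B6. LSK+ cells (Lin- Sca-1+ c-Kit+) hold the hematopoietic stem cells and multipotent progenitors, and LSK- cells (Lin- Sca-1- c-Kit+) hold the committed myeloid and erythroid progenitors. Both populations were taken from wild type (WT) and from XistΔ/Δ mice, and in the latter Vav-iCre deletes both floxed copies of Xist throughout the hematopoietic system, so the deletion is not limited to the sorted cells. About 10000 cells entered each reaction, and each of the 4 groups had 2 libraries. The labels do not say whether the libraries of a group came from different mice, and p-values measure the spread between these libraries only.

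Mast cells, basophils and eosinophils arise from c-Kit+ progenitors of the bone marrow. Mast cells and basophils carry the high-affinity IgE receptor FcεRI, whose crosslinking by antigen releases histamine and proteases from their granules, and the granules of eosinophils hold toxic cationic proteins and a peroxidase. GATA, RUNX, C/EBP and ETS factors and MITF take part in how these lineages form. ATAC-seq measures whether DNA is accessible, not whether a gene is transcribed.

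The sequences below are from the plus strand of mm10. They include the summit windows of the 2 regions called between cell types below (Hdc-9, chr2:126602274-126602474, and Mitf-14, chr6:97929418-97929618). Both calls were lost when some single libraries were left out, and the filter fixed the sign at Mitf-14. Also given are the 200 bases before the start sites at Mitf-14 (chr6:97929599-97929798) and at Il1rl1-3 (chr1:40429370-40429569). The last is the summit window of Prg2-2 (chr2:84967483-84967683), a distal region open in all 8 libraries. Capitals mark matches on either strand to the GATA motif (AGATAA or TGATAA), the RUNX motif (TGTGGT), the ETS motif (GAGGAA), the C/EBP motif (TTNNGCAA), the AP-1 motif (TGANTCA) and the E-box (CACGTG or CATGTG).
Hdc-9: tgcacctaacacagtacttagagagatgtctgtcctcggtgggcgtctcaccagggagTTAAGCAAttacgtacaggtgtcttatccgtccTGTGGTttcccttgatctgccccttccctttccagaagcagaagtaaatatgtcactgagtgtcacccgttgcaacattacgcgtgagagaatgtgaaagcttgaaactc
Mitf-14 summit: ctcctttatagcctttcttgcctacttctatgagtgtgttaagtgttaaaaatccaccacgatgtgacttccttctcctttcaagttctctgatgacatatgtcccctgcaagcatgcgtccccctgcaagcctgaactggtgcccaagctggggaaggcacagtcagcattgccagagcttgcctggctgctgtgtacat
Mitf-14 start site: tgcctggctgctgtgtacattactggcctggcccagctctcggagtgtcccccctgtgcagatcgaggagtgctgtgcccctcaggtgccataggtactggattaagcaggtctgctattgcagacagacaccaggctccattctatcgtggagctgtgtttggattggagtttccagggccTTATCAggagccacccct
Il1rl1-3 start site: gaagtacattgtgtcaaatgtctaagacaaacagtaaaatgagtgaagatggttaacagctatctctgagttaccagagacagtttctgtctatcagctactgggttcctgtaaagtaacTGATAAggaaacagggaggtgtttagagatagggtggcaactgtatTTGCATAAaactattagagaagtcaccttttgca
Prg2-2: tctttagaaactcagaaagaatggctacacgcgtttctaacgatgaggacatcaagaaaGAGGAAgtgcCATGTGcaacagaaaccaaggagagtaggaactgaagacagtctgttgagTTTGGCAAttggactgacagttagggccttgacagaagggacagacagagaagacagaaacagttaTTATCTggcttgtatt
Hdc-9 held a C/EBP and a RUNX match, the Il1rl1-3 sequence a GATA and a C/EBP match, and Prg2-2 an ETS, an E-box, a C/EBP and a GATA match. The Mitf-14 summit held none of these letters, and the 200 bases before the start site there held 1 GATA match.

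The peak lists differed in length, from 29829 peaks in LSK+ WT replicate 2 to 91590 in LSK- XistΔ/Δ replicate 1, and the background at which a peak was judged ran from 0.48 to 3.87 fragments. LSK+ WT replicate 2 and LSK- WT replicate 2 stood apart with the shortest lists (29829 and 37578 peaks), against 62533 to 91590 in the other 6. XistΔ/Δ lists were longer than WT lists of the same cells and replicate number in all 4 such pairs. At Xist itself, the strongest promoter peak stood at percentiles of 51.2 to 80.6 in the 4 WT lists, was missing from 3 XistΔ/Δ lists and stood at 26.9 in LSK- XistΔ/Δ replicate 2, where percentiles rank peaks within a list as set out below. The promoter of Kit, which encodes c-Kit, had a peak in 8 of 8 libraries, and the promoter of the erythroid and mast cell factor Gata1 in 0 of 4 LSK+ and 4 of 4 LSK- libraries. That of Ly6a, which encodes Sca-1, had a peak in only 1 LSK+ and 1 LSK- library. In LSK+ and LSK- cells, mean promoter percentiles were 47.4 and 64.8 at Mpo, 31.2 and 48.3 at Elane, and 66.4 and 91.9 at Epor. At Klf1, another progenitor marker, the order was reversed (91.5 and 87.4). Of the stem cell markers, Hlf (73.8 and 66.5), Procr (21.6 and 3.72) and Meis1 (93.9 and 89.8) were higher in LSK+ cells. Mecom (81.1 and 84.3) was not. Promoters of Cd3e, Cd4, Cd8a and Ly6g, genes of cells the gate removes, had 0 peaks, but Itgam had one in 6 libraries. Among genes of mature mast cells, basophils and eosinophils, Mcpt4 and Prss34 had no promoter peak, Tpsb2 had one in 3 libraries, Cma1 and Ccr3 in 6, and Siglecf in 8.

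The number of peaks in the 9 windows was lowest in the shortest lists and highest in the longest one, with exceptions to this order among the lists in between. Replicate 1 and replicate 2 had 36 and 15 window peaks in LSK+ WT, 49 and 43 (LSK+ XistΔ/Δ), 50 and 23 (LSK- WT) and 65 and 49 (LSK- XistΔ/Δ). Per 10000 peaks of the list, this was 5.68 and 5.03 (LSK+ WT), 5.94 and 6.81 (LSK+ XistΔ/Δ), 7.03 and 6.12 (LSK- WT) and 7.1 and 7.84 (LSK- XistΔ/Δ). LSK- libraries were higher than LSK+ libraries of the same genotype and replicate number in all 4 pairs, although the ranges overlapped between cell types.

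**Figure D1:**
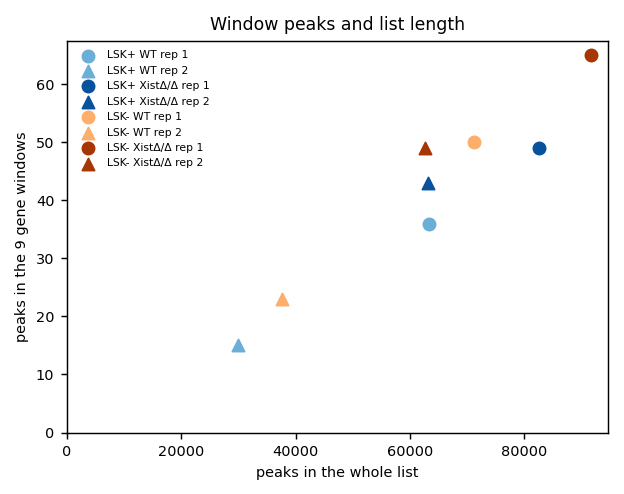
Number of peaks in the 9 gene windows (y axis) against the number of peaks in the whole list (x axis), 1 point for each library; colour is the group, circles are replicate 1 and triangles replicate 2. The shortest lists, LSK+ WT replicate 2 and LSK- WT replicate 2, hold the fewest window peaks (15 and 23).

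To put libraries side by side, each peak was given its percentile by −log10 p-value within its own list (list percentile, 100 for the strongest peak and 0 where a library had no peak). A promoter value is that of the strongest peak within 3 kb of a start site of the gene. Values below are given for replicate 1 and then replicate 2. In sorted bulk cells, fewer cells with an open site and less opening per cell cannot be told apart.

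Fcer1a encodes the IgE-binding alpha chain of FcεRI, and Ms4a2 its beta chain, which amplifies the signal. Neither promoter had a peak in any of the 4 LSK+ libraries. The Fcer1a promoter region (chr1:173226883-173227506, summit 33 bp upstream of the start site) had list percentiles of 28.6 and 0 (LSK- WT) and 30.9 and 12.1 (LSK- XistΔ/Δ). The region upstream of Ms4a2 (chr19:11625209-11625580, summit 1768 bp before the start site) reached 58.5 and 78.3 in replicate 1 of LSK- WT and LSK- XistΔ/Δ and had no peak in replicate 2 of either. Both promoters were open in LSK- lists only, and not in every one of them. Their summits held few fragments, 11 to 29 at Fcer1a and 28 and 79 at Ms4a2. The differences between cell types were 17.9 points at Fcer1a and 34.2 at Ms4a2 (exact permutation p = 0.167 and 0.50). Among equal numbers of top peaks they were 0.0 at Fcer1a, where no library had a promoter top peak, and 8.54 at Ms4a2. Within 1 kb of the start site Ms4a2 had no peak. LSK- WT replicate 2, where both were missing, had one of the shortest lists. Ms4a2 was also missing in LSK- XistΔ/Δ replicate 2, whose list held 62533 peaks. The replicate number also marks the sequencing run, and its part here was not tested.

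Around Ms4a2, the distal region Ms4a2-8 (chr19:11611574-11612071, downstream of the gene) was open in 8 of 8 libraries, with list percentiles from 42.8 to 75.6. Ms4a2-9, at the promoter of the neighbouring gene Ms4a6d, was open in 7 libraries, at 80.2 and 17.1 (LSK+ WT), 81.3 and 73.9 (LSK+ XistΔ/Δ), 67.6 and 0 (LSK- WT) and 78.0 and 54.2 (LSK- XistΔ/Δ). The window of Fcer1a held only 1 region besides the promoter, at Olfr1404 (Fcer1a-2), with peaks in replicate 1 of both LSK- groups (68.0 and 82.4) and in no other library. Open DNA in these windows was therefore not confined to LSK- cells at Ms4a2, whereas all 5 peaks at Fcer1a came from LSK- lists.

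Il1rl1 encodes ST2, the receptor for IL-33, an alarmin that activates mast cells, basophils and eosinophils. The gene has several start sites. The region at the first of them, Il1rl1-3 (chr1:40428985-40429631, with its summit 197 bp upstream), had no peak in any LSK+ library and one in all 4 LSK- libraries. Its list percentiles were 81.4 and 42.9 (LSK- WT) and 91.0 and 58.9 (LSK- XistΔ/Δ), with 57, 17, 187 and 26 fragments at the summit. The groups did not overlap. The only promoter peak of Il1rl1 in LSK+ cells lay 711 bp inside the gene in XistΔ/Δ replicate 1, at a list percentile of 11.4. With that peak counted, the promoter was 65.7 percentile points higher in LSK- than in LSK+ cells. The two-sided exact permutation test gave p = 0.0556 over 36 assignments of the labels within genotype, the smallest p that test allows. Permuted within replicate number as well, the exact p was 0.125 over 16 assignments, again the smallest possible. LSK- was higher in 4 of 4 pairs of the same genotype and replicate number.

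Il1rl1-10, within the neighbouring gene Il18r1 (which encodes the IL-18 receptor chain), lay 29.5 kb beyond the last start site of Il1rl1. It was absent in both LSK+ WT lists, stood at 47.3 and 42.8 (LSK+ XistΔ/Δ), 79.3 and 25.3 (LSK- WT) and 72.3 and 48.3 (LSK- XistΔ/Δ). Upstream of Il1rl1, the distal region Il1rl1-1 (chr1:40409969-40410459) was open in 8 of 8 libraries, from 4.03 in LSK+ WT replicate 2 to 78.6 in LSK- XistΔ/Δ replicate 2. The 3 regions showed unlike patterns within 1 locus, in that the distal regions were open in LSK+ lists in which the first start site had no peak.

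Cpa3 encodes carboxypeptidase A3, a protease stored in mast cell granules. Its promoter stood at 52.6 and 0 (LSK+ WT), 68.5 and 68.9 (LSK+ XistΔ/Δ), 68.8 and 51.3 (LSK- WT) and 68.6 and 55.8 (LSK- XistΔ/Δ). Only LSK+ WT replicate 2, the shortest list, had no promoter peak. The difference between cell types of 13.6 points (exact permutation p = 0.611) was smaller than the SD of LSK+ WT (37.2) and larger than that of the other 3 groups (0.311 to 12.4). These values joined 2 regions. Cpa3-2 lies at the start site (chr3:20242109-20242496) and was open in 3 LSK+ and 3 LSK- libraries, whereas Cpa3-1, with its summit 2015 bp upstream (chr3:20243895-20244294), stood at 0 and 0 (LSK+ WT), 3.21 and 8.13 (LSK+ XistΔ/Δ), 41.0 and 51.3 (LSK- WT) and 68.6 and 55.8 (LSK- XistΔ/Δ). On this scale every LSK- library was above every LSK+ library at Cpa3-1, and at Cpa3-2 the groups overlapped. Among equal numbers of top peaks, Cpa3-1 stood at 0 in all LSK+ libraries and at 0, 38.6, 3.61 and 7.34 in the LSK- libraries, so that LSK- WT replicate 1 was level with LSK+ cells.

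Mcpt8 encodes mast cell protease 8, which in mice marks basophils. Its promoter stood at 55.1 and 0 (LSK+ WT), 55.7 and 50.9 (LSK+ XistΔ/Δ), 43.1 and 16.3 (LSK- WT) and 36.3 and 48.0 (LSK- XistΔ/Δ). The groups overlapped, with a difference of -4.50 points (exact permutation p = 0.722). Within 1 kb of the start site the difference was 13.2 points, because the highest LSK+ peaks lay at the 3′ end of this short gene (Mcpt8-6, in exon 5, at 55.1 in LSK+ WT replicate 1 and 55.7 in LSK+ XistΔ/Δ replicate 1), still within 3 kb of the start. The peak at the start itself, Mcpt8-5 (chr14:56085062-56085469), stood at 15.0 and 0 (LSK+ WT), 24.9 and 50.9 (LSK+ XistΔ/Δ), 43.1 and 16.3 (LSK- WT) and 36.3 and 48.0 (LSK- XistΔ/Δ). Further upstream, Mcpt8-2 at the promoter of Ctsg (cathepsin G, a protease of neutrophil granules) was open in 4 of 4 LSK- libraries, at 51.0 and 71.2 (WT), 63.8 and 82.5 (XistΔ/Δ), and in LSK+ XistΔ/Δ replicate 2 at 69.8.

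Hdc encodes histidine decarboxylase, which makes histamine. It had more open regions than any member but Mitf, 15 over a window of 65.6 kb. Its promoter stood at 9.96 and 9.56 (LSK+ WT), 51.3 and 43.0 (LSK+ XistΔ/Δ), 49.9 and 33.4 (LSK- WT) and 49.4 and 65.5 (LSK- XistΔ/Δ). LSK+ WT was below the other groups, which overlapped among themselves. In LSK+ WT the value came from Hdc-3, a weak region 2706 bp upstream, and the region at the start site itself (Hdc-4, chr2:126618493-126619660) had no peak there. The difference between cell types was 21.1 points (exact permutation p = 0.111) and that between genotypes 26.6 points (p = 0.111, exact permutation), neither past the threshold. Among equal numbers of top peaks they were 8.57 and 0.494 points. On that scale the promoter was above 0 only in replicate 2 of LSK+ WT (9.56), LSK- WT (16.2) and LSK- XistΔ/Δ (27.7).

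Hdc-9, a distal region in an intron of Hdc (chr2:126601992-126602706, 16.3 kb downstream of the start site), stood at 42.4 and 0 (LSK+ WT), 68.4 and 57.3 (LSK+ XistΔ/Δ), 73.0 and 38.2 (LSK- WT) and 78.1 and 67.2 (LSK- XistΔ/Δ). These list percentiles overlapped between cell types. On the equal-length scale used for the test below, the 4 LSK- libraries (35.5, 22.1, 32.7 and 31.2) were above the 4 LSK+ libraries (0, 0, 12.5 and 9.48). Along the rest of the gene, Hdc-5, Hdc-11 and Hdc-13, the last in exon 12, were open in 6 or 7 libraries of both cell types, at list percentiles of up to 76.8. Hdc-1, at the promoter of Gm23753 within Gabpb1, was open in all 8.

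**Figure D2:**
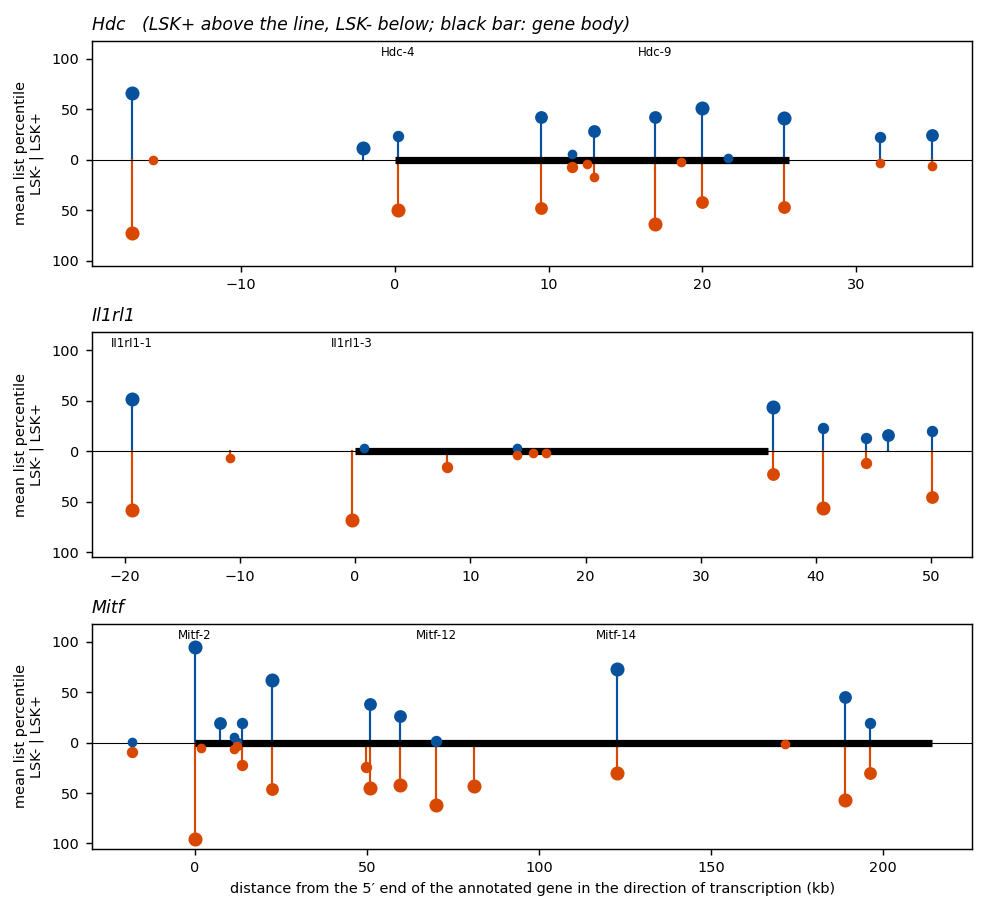
Mean list percentile over 4 LSK+ libraries (blue, above the line) and 4 LSK- libraries (orange, below the line) of each region at Hdc, Il1rl1 and Mitf, by distance in kb from the 5′ end of the annotated gene; the black bar is the gene body and larger points were open in more libraries. Il1rl1-3 has an orange bar only, and Mitf-14 has a taller blue than orange bar (72.9 against 30.3).

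Prg2 encodes major basic protein and Epx eosinophil peroxidase, both stored in eosinophil granules. Neither promoter had a peak among the top peaks of any library. The Prg2 promoter region (chr2:84979933-84980668) stood at 0 and 0 (LSK+ WT), 26.1 and 0 (LSK+ XistΔ/Δ), 28.8 and 0 (LSK- WT) and 47.2 and 44.8 (LSK- XistΔ/Δ). At Epx the only promoter peak was in LSK+ XistΔ/Δ replicate 1, at 23.7 with 17 fragments at the summit. Epx thus had a promoter peak in 1 of 8 libraries and Prg2 in 4. The distal region Prg2-2, 12.9 kb upstream (chr2:84967141-84967959), was open in all 8 libraries, at 71.1 and 21.1 (LSK+ WT), 87.1 and 69.8 (LSK+ XistΔ/Δ), 82.0 and 41.6 (LSK- WT) and 81.7 and 74.6 (LSK- XistΔ/Δ). Its values overlapped between cell types. In the other direction, the promoter of Prg3, a homologue of Prg2 expressed in eosinophils (Prg2-5), was open in 7 libraries at 55.4 to 86.5, and in the Epx window the promoter of Mks1, a gene of the primary cilium (Epx-2), was open in all 8 at 44.3 to 83.7.

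Mitf encodes a basic helix-loop-helix leucine zipper factor required for mast cells and melanocytes, and its alternative first exons give isoforms of different tissues. The region at the most upstream start site, Mitf-2 (chr6:97806520-97807430, with its summit 91 bp before the start), was the strongest of the 78. It stood at 97.1 and 86.8 (LSK+ WT), 99.5 and 94.3 (LSK+ XistΔ/Δ), 98.4 and 91.3 (LSK- WT) and 98.4 and 95.8 (LSK- XistΔ/Δ). Both cell types had it near the top of their lists, and the difference of 1.57 points (exact permutation p = 0.556) was smaller than the spread between replicates.

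A later start site of Mitf, far inside the gene, lay next to Mitf-14 (chr6:97929248-97930078, summit 281 bp before the start and in an intron of the longer transcripts). It was open in all 8 libraries, at 83.6 and 60.6 (LSK+ WT), 84.7 and 62.9 (LSK+ XistΔ/Δ), 56.9 and 0.442 (LSK- WT) and 44.4 and 19.4 (LSK- XistΔ/Δ). Every LSK+ library was above every LSK- library. Its summit held 49, 18, 73 and 32 fragments in the LSK+ libraries and 25, 7, 37 and 13 in the LSK- libraries. Mitf-12, an intronic region 52.5 kb upstream of this start site (chr6:97876733-97877696), had the opposite order, at 1.64 and 0 (LSK+ WT), 0 and 5.62 (LSK+ XistΔ/Δ), 77.5 and 25.5 (LSK- WT) and 83.9 and 61.2 (LSK- XistΔ/Δ). Mitf-13, at the promoter of Gm15531, was likewise open in 4 LSK- and 0 LSK+ libraries. Open regions of both orders thus stood within 1 gene whose first promoter did not differ.

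**Figure D3:**
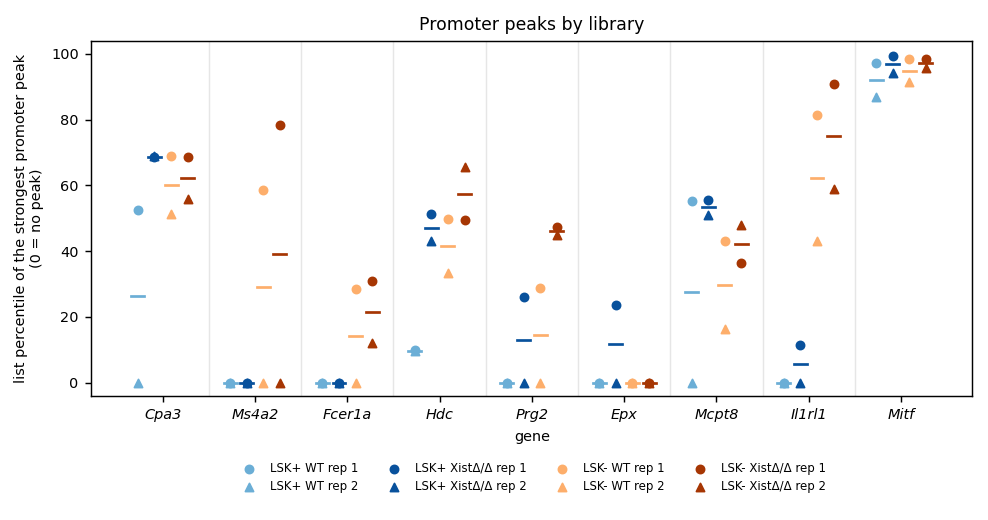
List percentile of the strongest promoter peak of each of the 9 genes (y axis, 0 where a library had no peak) in each library; colour is the group, circles are replicate 1, triangles replicate 2 and bars the mean of 2 libraries. Mitf lies above 86 in every library, Il1rl1 is higher in all LSK- than in all LSK+ libraries, and Fcer1a and Ms4a2 are at 0 in LSK+ cells.

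Whether regions differed between LSK+ and LSK- cells, the comparison of stem and multipotent cells with committed progenitors, was tested across the genome on an equal-length percentile, which ranks only the 29829 strongest peaks of each list, the length of the shortest one, and is 0 elsewhere. Of 41782 regions with a top peak in at least 2 libraries, 32 belonged to the 9 genes. The other 46 member regions had a top peak in fewer than 2 libraries and were not tested, among them the promoters of Fcer1a, Prg2 and Epx and both Mcpt8 promoter regions. One member region, Hdc-9, was higher in LSK- cells, beside 3.93% of all tested regions, and 1, Mitf-14, was higher in LSK+ cells, beside 5.17%. As shares of 32, both counts lay below the background.

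Hdc-9 rose by 24.9 ± 4.65 points (SE) from LSK+ to LSK- cells (limma with Benjamini-Hochberg adjustment over all regions, adjusted p = 0.0286), by 27.8 within replicate 1 and 21.9 within replicate 2. Mitf-14 was lower in LSK- cells, at -51.2 ± 8.34 points (limma, adjusted p = 0.0192), -61.3 within replicate 1 and -41.0 within replicate 2. On this scale it stood at 65.1, 60.6, 57.6 and 21.5 in the LSK+ libraries and at 0 in all 4 LSK- libraries, where its peaks were below the top 29829. Mitf-14 thus passed the filter through LSK+ libraries only. This fixed the sign of its difference, and its p-value is a description only. Both calls were lost when some single libraries were left out. The call at Hdc-9 was lost without any 1 of 7 libraries (adjusted p from 0.0546 to 0.0860) and held only without LSK- WT replicate 2 (0.0328). The call at Mitf-14 was lost without either LSK+ WT library, either LSK- WT library or LSK- XistΔ/Δ replicate 1 (0.0573 to 0.0742).

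Il1rl1-3 differed by 42.5 ± 13.8 points and did not pass the test (limma, adjusted p = 0.131), with 55.6 and 28.1 (LSK- WT), 72.3 and 13.8 (LSK- XistΔ/Δ) and 0 in LSK+ cells. With no peak in any LSK+ library, it passed the filter through LSK- libraries only. The sign of its difference was thus fixed, and the p-values given for it are descriptions only. With the percentile taken over each whole list it did pass, at 68.5 ± 11.2 (limma, adjusted p = 0.0485), as did Cpa3-1 at 51.3 ± 5.38 (limma, adjusted p = 0.0191), while Hdc-9 and Mitf-14 did not. It also passed without LSK- XistΔ/Δ replicate 2 (57.1, limma adjusted p = 0.0222). Mitf-12 (30.4 ± 11.2, limma adjusted p = 0.172), Mitf-8 (-25.5 ± 11.3, limma adjusted p = 0.248) and Ms4a2-9 (-27.2 ± 11.9, limma adjusted p = 0.240) followed in size and did not pass. Of these, Mitf-12 had no top peak in any LSK+ library and passed the filter through LSK- libraries only. The sign of the Mitf-12 difference was thus fixed as well, and its p-value is a description only.

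Over the 32 tested member regions the median difference was 5.09 points in the direction of LSK-, beside 0.124 over all tested regions. This is a description only, since 10 of the 32 regions had no top peak in any LSK+ library and 2 had none in any LSK- library, so that the filter fixed the sign of their differences. Within replicate 1 the median was 1.95 and within replicate 2 it was 1.31. Without LSK- WT replicate 1 it fell to 2.26, and without LSK+ WT replicate 1 it was 7.67. At an unadjusted p below 0.05 in limma, 4 of 32 member regions (12.5%) passed, beside 23.9% of all tested regions.

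**Figure D4:**
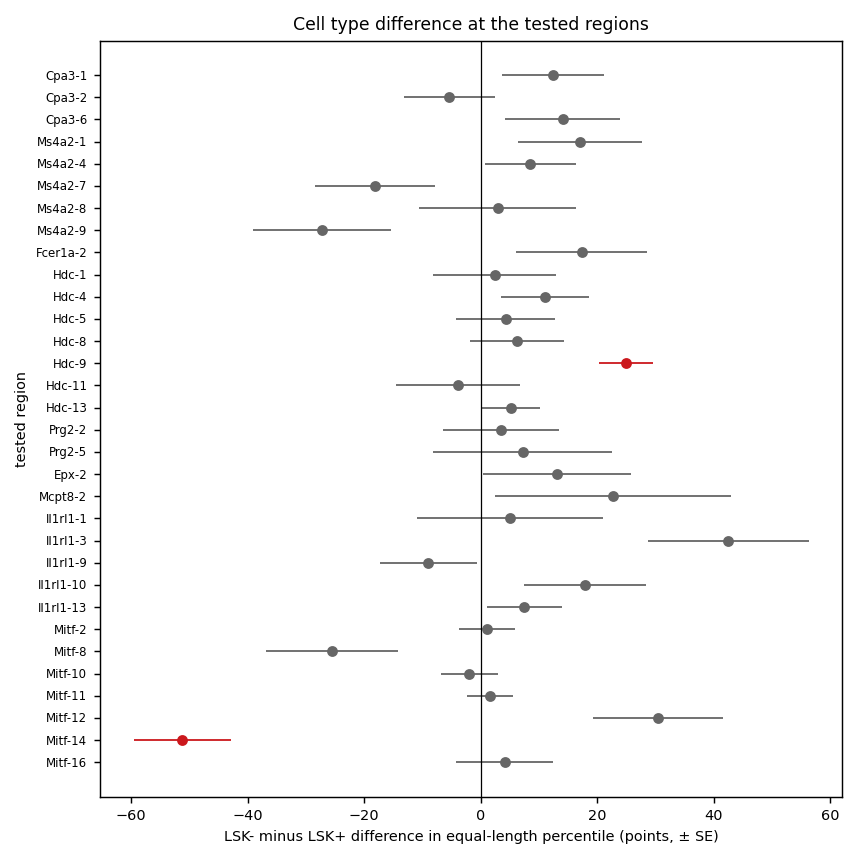
LSK- minus LSK+ difference in equal-length percentile (x axis, points) of each of the 32 tested regions, with its SE as a bar; red points passed the limma test at an adjusted p of 0.05 and gray points did not. Hdc-9 (24.9) lies right of 0, Mitf-14 (-51.2) left of 0, and most other bars reach or come near 0.

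Whether Xist deletion altered these regions was tested in the same fit. None of the 32 passed in either direction over both cell types, beside 0.0% of all 41782 regions higher and 0.0% lower in XistΔ/Δ, and none passed within LSK+ cells, within LSK- cells or for the difference between cell types in the effect of genotype (limma). At an unadjusted p below 0.05, 0 of 32 member regions and 3.38% of all regions passed the genotype contrast. The largest differences were 14.8 ± 15.4 points at Prg2-5 and -13.7 ± 10.7 at Hdc-11, neither past an unadjusted p of 0.05. The median over the 32 regions was 2.19 points, beside -0.0117 over all regions. List percentiles, which do not correct for list length, were higher in XistΔ/Δ at the promoters of Hdc, Prg2 and Cpa3 (26.6, 22.4 and 22.3 points, exact permutation p = 0.111, 0.167 and 0.167), and the XistΔ/Δ lists were also the longer ones. Among equal numbers of top peaks, the same differences were 0.494 at Hdc, 0.0 at Prg2 and -1.54 at Cpa3. No library had a top peak at the Prg2 promoter, so the 0.0 there was fixed in advance. At Hdc, only replicate 2 of LSK+ WT, LSK- WT and LSK- XistΔ/Δ had a promoter top peak. At these 2 promoters this scale cannot show whether the genotypes differ.

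**Figure D5:**
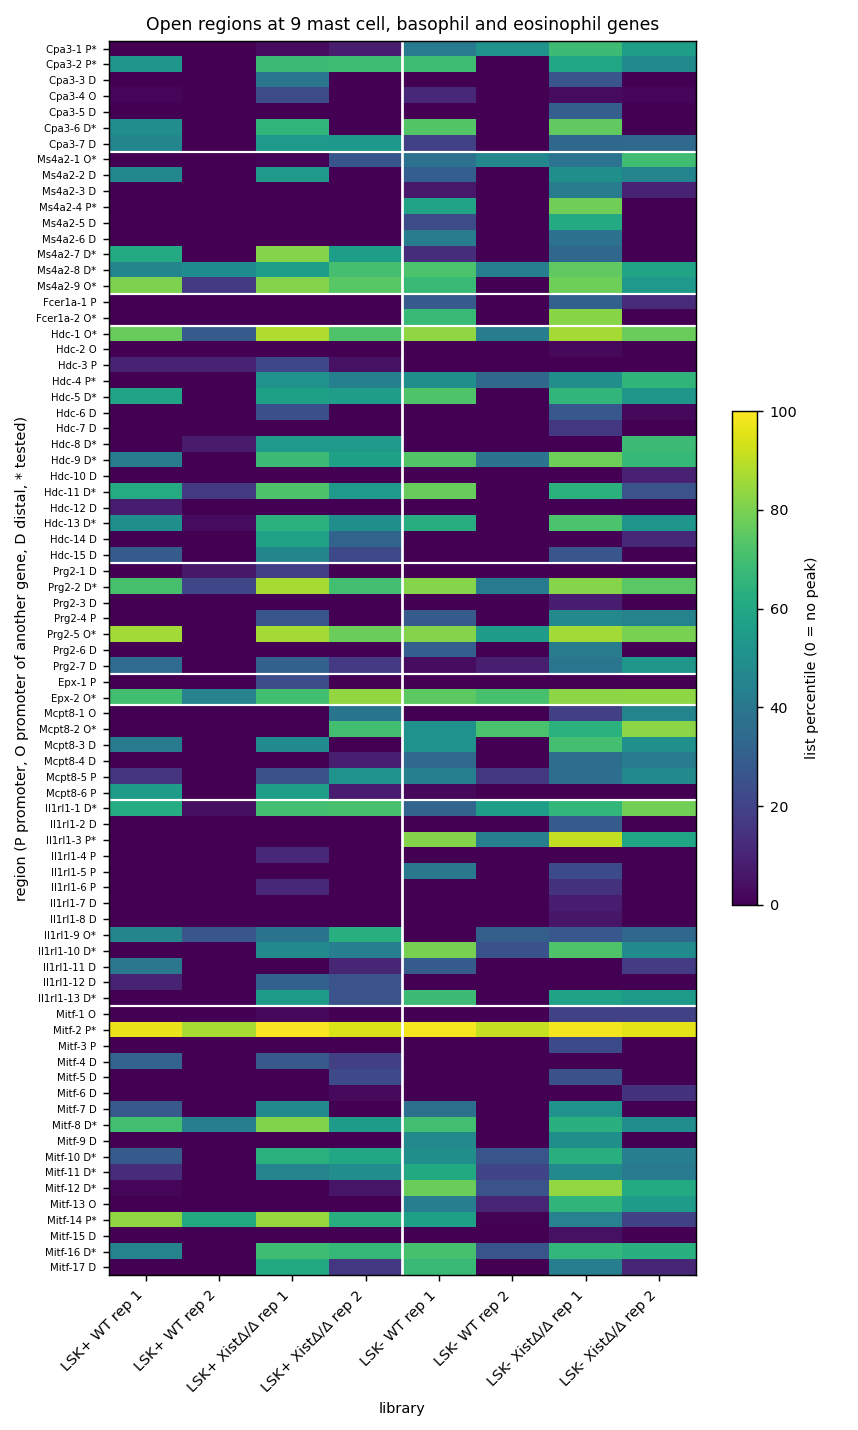
List percentile (colour, 0 to 100, darkest for no peak) of the 78 regions (rows, grouped by gene; P promoter, O promoter of another gene, D distal, an asterisk for tested) in the 8 libraries (columns, LSK+ left of the white line). LSK+ WT replicate 2 and LSK- WT replicate 2, the shortest lists, are the darkest columns, and Mitf-2 is bright in every library.

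The 78 regions varied in how often they were seen. In all 8 libraries 7 regions had a peak, namely Ms4a2-8, Hdc-1, Prg2-2, Epx-2, Il1rl1-1, Mitf-2 and Mitf-14, and 13 had a peak in a single library. Cpa3, Fcer1a and Mcpt8 had no region open in all 8. Windows held 17 regions at Mitf, 15 at Hdc, 13 at Il1rl1, 9 at Ms4a2, 7 each at Cpa3 and Prg2, 6 at Mcpt8 and 2 each at Fcer1a and Epx. In summit windows of the 32 tested regions, GATA letters were found in 11 (34.4%, beside 20.6% of all tested regions) and C/EBP letters in 7 (21.9%, beside 8.81%). RUNX letters were in 11 (34.4%, beside 24.1%), ETS letters in 9 (28.1%, beside 29.6%), E-box letters in 3 (9.38%, beside 17.7%) and AP-1 letters in 2 (6.25%, beside 7.80%). These shares are descriptions of short letter matches.

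Other genes of the same cells were taken as a fixed list of 21, with 8 mast cell genes such as Kit and Gata2, 6 basophil genes such as Il4 and Csf2rb, and 7 eosinophil genes such as Il5ra and Cebpe. They held 144 regions, of which 44 were tested, including the member region Prg2-5 at the promoter of Prg3. None was higher in LSK- cells (3.93% of all tested regions) and 1 was higher in LSK+ cells (5.17% of all), at Csf2rb. This gene encodes the common beta chain of the IL-3, IL-5 and GM-CSF receptors. Differences at its 5 tested regions ran from -28.9 to 38.2 points, so the locus held regions of both orders. For genotype none passed. Promoters of Il5ra and Fcer1g, the eosinophil IL-5 receptor chain and the FcεRI gamma chain, had higher mean list percentiles in LSK- cells (39.1 and 45.8) than in LSK+ cells (11.4 and 26.3), whereas those of Ccr3 and Cma1 had the lower ones (36.9 and 12.5, beside 48.8 and 17.5). Of the 18 listed genes with a promoter peak in any library, 14 had the higher mean in LSK- cells and 4, namely Cma1, Hpgds, Csf2rb and Ccr3, the lower one. This scale does not correct for list length, and these means were not tested. The same share over all promoters was not computed, so these counts are not read as a trait of the listed genes.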

How the data were processed

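ATAC-seq libraries of LSK+ and LSK- cells of WT and XistΔ/Δ mice (4 groups of 2) were analysed from the peak lists deposited for each library. The authors trimmed reads with Trim Galore, aligned them to mm10 with Bowtie2 (2.3.5.1), removed mitochondrial reads and reads of mapping quality below 30 with SAMtools (1.10), and called peaks per library with MACS2 (2.2.7.1) at a q-value of 0.01. Removal of duplicates, a shift for Tn5 and a control library are not given in the sources used here. Deposited values were fold enrichment (a ratio), −log10 p-value and −log10 q-value per peak, and the summit offset. A score column was not used, and the read counts per peak of the study's own test were not analysed here.

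Genes and start sites came from the GENCODE M21 basic annotation. Fragments at a summit were recovered from fold and −log10 p-value under the Poisson model of the peak caller. Percentiles by −log10 p-value were fitted with limma (3.58.1, R 4.3.3; group means, empirical Bayes, Benjamini-Hochberg over 41782 regions of chromosomes 1 to 19 and X, threshold 0.05), and promoter values were compared by exact permutation. Percentiles are ranks, so depth acts on them through what is called at all. Steps were tested on simulated data. The replicate number marks the sequencing run, an MGI run for replicate 1 and an Illumina run for replicate 2. This comes from the run codes of the lists and the study's supplementary sample list, not the sample labels. Deviations from the group mean correlated between libraries of the same number at r = 0.164 to 0.521 over the 6 pairs of groups. The numbers were therefore taken to pair the libraries in the replicate block and in permutations within replicate number. The main fit did not use this pairing.

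Regions named by rule were, per gene, the strongest promoter and distal regions, the largest cell type difference and every call. Others, such as Cpa3-1, Mitf-12 and Il1rl1-10, and the windows before start sites, were chosen after their values were seen. Of the summit windows given by rule, only those the results turn on are printed. The members and lists were chosen with earlier results of these data known. Alternatives were another ranking, whole lists, a stricter q-value, 50% coverage of a region, no filter, a 5 kb flank, a replicate block and leaving out each library. One marker gene of the mature lineages is not reported here.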

Additional observations from a re-analysis of the deposited data

How the results depend on the processing

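Depth limits these results, since lists ran from 29829 to 91590 peaks and a missing peak in a short list may be missed rather than closed. Groups of 2 cannot give an exact permutation p below 0.0556, or below 0.125 where labels are permuted within replicate number. With the replicate block, the counts of 1 region higher in LSK- and 1 higher in LSK+ were kept, at Hdc-9 (24.9) and Mitf-14 (-51.2), and no other call changed. The limma adjusted p with the block was 0.0729 at Ms4a2-9 and, as a description only, 0.0816 at Il1rl1-3. Where results moved, the cause was not tested.

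The count higher in LSK- (1) was 0 when ranked by fold enrichment, with a −log10 q-value of at least 5 or with 50% coverage. It was 2 over the whole list, and 0 to 1 leaving out a library. Ranked by fold enrichment, Hdc-9 had a top peak in fewer than 2 libraries and was not tested. The count higher in LSK+ (1) was 0 by fold, over the whole list and with 50% coverage, and 0 to 1 leaving out a library. The median cell type difference (5.09) was 7.08 by fold, 6.84 over the whole list, 4.30 at the stricter q-value, 4.54 with 50% coverage, 3.82 with no filter, 4.32 with 5 kb, and 2.26 to 7.67 leaving out a library. The median genotype difference (2.19) was 15.0 over the whole list, beside 9.77 over all regions tested on that scale. Leaving out a library it was -0.111 to 2.43, the lowest without LSK- WT replicate 2. Window peaks averaged 41.2, 26.6 with 5 kb and 18.2 among equal numbers of top peaks.

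The single differences that changed sign had passed no test. Between cell types, Ms4a2-8 (2.93) was -8.22 by fold and -3.96 at the stricter q-value, Prg2-5 (7.20) -18.2 and Mitf-2 (1.13) -21.6 with 50% coverage, and the promoters of Cpa3 (13.6) -3.58 and Mcpt8 (-4.50) 13.2 within 1 kb. Between genotypes, with equal numbers of top peaks, the promoters of Cpa3 (22.3) and Mcpt8 (19.1) were -1.54 and -1.17. The Mcpt8 value rested on a single promoter top peak, in LSK+ WT replicate 1 (4.70). Leaving out a library, cell type differences ran from -11.8 to 1.03 at Cpa3-2, -9.25 to 15.1 at Ms4a2-8, -4.11 to 11.1 at Prg2-2, -10.5 to 24.9 at Prg2-5, -8.75 to 18.8 at Il1rl1-1, -1.56 to 3.82 at Mitf-2, -18.3 to 9.28 at the Mcpt8 promoter and -0.994 to 4.13 at the Mitf promoter, and genotype differences from -14.6 to 24.5 at the Ms4a2, -3.58 to 10.7 at the Fcer1a and -0.365 to 18.9 at the Il1rl1 promoter.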
